A study of Mus musculus and Miniopterus natalensis with 16 samples.

Results

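The bat hand plate was followed across 1 step of embryonic staging by setting the 4 CS17 forelimb (FL) arrays against the 4 CS16 FL arrays, 8 of the 16 arrays in the series. CS16 and CS17 are Carollia stages, a staging scheme for bat embryos. All samples were autopods, the flattened distal part of the limb, of wild-caught Miniopterus natalensis, cut at the presumptive wrist or ankle with no genotype or treatment between them, and each hindlimb (HL) sample came from the same embryo as the FL sample of its stage and repeat. The 2 stages came from different embryos, so a stage difference was always a difference between animals. Every array also carried RNA of 1 mouse hand plate pool at E13.5, for which the labels give the number 24, without making clear whether it counts embryos or plates. Bat RNA was labelled with Cy3 and pool RNA with Cy5, without dye swap, and each biological repeat was its own labelling batch.

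In the developing hand plate, digit rays condense from mesenchyme into cartilage while the tissue between them either regresses, as in the mouse hand or the bat foot, or persists and grows into the wing membrane. Cartilage cells secrete a matrix in which aggrecan is held on hyaluronan by link protein. Homeodomain proteins of the Meis and Hox families set position along the limb. Stage differences of this kind were read here from whole autopods, in which fewer cells of a type and less RNA per cell cannot be told apart.

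Each value is a log2 ratio of bat over mouse pool at an array feature, so a value of 1 is a level 2 times that of the pool. The sign of the deposited values was turned for this reading. The direction is likely and rests on 33 of 35 probes in a supplementary list of top genes, whose folds were met with the sign turned, against 4 probes with the sign as deposited. Read by the wording of the sample labels instead, every direction given here would be the opposite. Because the probe and pool were shared by both stages, a constant probe or dye factor falls out of the stage difference, but not out of the ratio to the mouse itself. Rows carry feature numbers only. Of the 35 listed probes, 30 met exactly 1 feature and were named from it, 29 of them with a gene symbol. Another 3 met several features and 2 met none. When the folds were shuffled among the probes 100 times, up to 9 of the 35 still met a feature. A single name can therefore be an accidental match, and the names were not checked in another way. The study had picked these probes for limb or species differences on the same arrays, so their directions are not independent evidence.

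A total of 12656 features had values and were tested. The median difference between stages was 0.096 in size, against a median standard error (SE) of 0.126, and 95% of features lay within 0.331 on the log2 scale. A fold above 2 was reached by 4 features (0.0316%), and all of them were higher at CS17. These were the features of Hapln1 and Matn1, both coding for cartilage matrix proteins, the 5′ probe of the homeobox gene Meis2, and feature 14081, which has no name here. With limma and an adjusted p under 0.05, 2 features were called (0.0158%), Hapln1 and feature 14081, and both rose. The split was 7 higher and 2 lower with arrays centred on their median, and 11 higher and 4 lower after quantile normalization. Matn1 and Meis2 missed that threshold with adjusted p values of 0.0609 and 0.0678. No feature was called lower (0%), and 782 features (6.18%) had an unadjusted p under 0.05, of which 395 (3.12%) were higher and 387 (3.06%) lower at CS17.

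**Figure D1:**
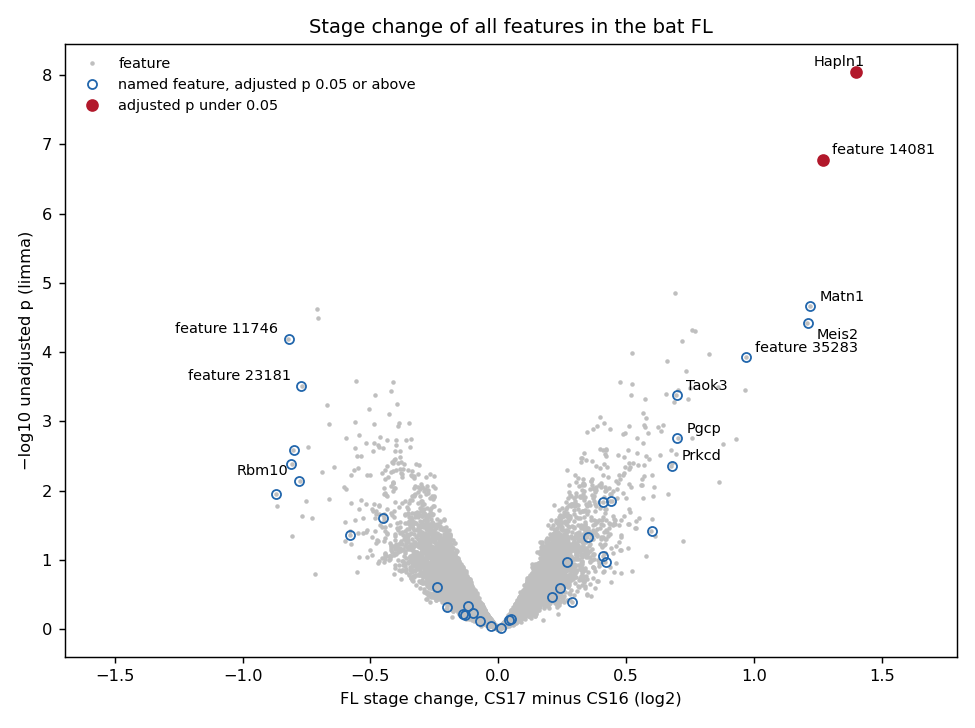
The horizontal axis gives the FL stage change as CS17 minus CS16 on the log2 scale, and the vertical axis gives −log10 of the unadjusted limma p. Each grey point is 1 of 12656 features, circles are the named features, and the 2 filled points at the upper right are Hapln1 and feature 14081, the only ones with an adjusted p under 0.05. Matn1 and Meis2 lie at similar differences with larger p values.

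Hapln1 codes for the link protein that fastens aggrecan to hyaluronan in cartilage. Its log2 ratio was 1.5, 1.77, 1.62 and 1.71 on the CS17 FL arrays, against 0.36, 0.02, 0.24 and 0.40 on the CS16 FL arrays. The stages were far apart, since the lowest CS17 value was above every CS16 value by more than the whole range within either stage. The rise was 1.40 (SE 0.12, 95% interval 1.14 to 1.65), a 2.63-fold change with an adjusted p of 1.13e-04 in limma. All 4 labelling batches showed it, with differences between 1.14 and 1.75. Hapln1 was called in the FL under all 16 alternative settings, with log2 changes between 1.30 and 1.46 and adjusted p values up to 0.00554.

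Set against the mouse pool, Hapln1 stood at 3.13 times the pool in the CS17 FL and at 1.19 times the pool in the CS16 FL. In these 2 ratios to the mouse, a difference of expression cannot be told apart from one of dye or of probe match. In the HL, Hapln1 was 1.02, 1.10, 0.93 and 0.68 at CS17, against -0.11, -0.12, 0.04 and 0.07 at CS16. The HL rose as well, by 0.96 (SE 0.12, adjusted p = 0.00661), and the groups did not overlap there either. Without CS16 HL replicate 1 the adjusted p of that HL rise was 0.0593, and it passed the threshold with each of the other 15 arrays left out. The FL change exceeded the HL change by 0.44 (SE 0.17), a difference with an adjusted p of 0.568.

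Feature 14081 had the second smallest p. Its log2 ratio was 2.76, 2.74, 2.59 and 2.79 in the CS17 FL, against 1.62, 1.19, 1.64 and 1.33 in the CS16 FL. The CS17 values lay close together and well clear of the CS16 values. The rise was 1.27 (SE 0.14, 95% interval 0.98 to 1.57, adjusted p = 0.00106), or 2.42-fold. In the HL the same feature rose by 1.01 (SE 0.14, adjusted p = 0.0122), and the interaction of limb and stage was 0.27 (SE 0.19, adjusted p = 0.772). For the FL it was called under all 16 alternatives, with adjusted p values up to 0.0124. For the HL the call was lost without CS16 HL replicate 1 or CS16 HL replicate 3 (highest adjusted p = 0.0624).

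Matn1 codes for matrilin-1, a filament-forming protein of cartilage matrix. Its log2 ratio was 0.20, 0.99, 0.59 and 0.68 in the CS17 FL, against -0.36, -1.20, -0.50 and -0.35 in the CS16 FL. All CS17 values lay above the pool and all CS16 values below it, and the groups did not overlap. The difference was 1.22 (SE 0.20, 95% interval 0.79 to 1.64), a 2.33-fold difference, and lay between 0.56 and 2.19 within the 4 labelling batches. Repeat 2 gave the widest separation, with the highest CS17 value and the lowest CS16 value. Removing CS17 FL replicate 1, the only 1 of 8 FL arrays whose removal made Matn1 pass the threshold, gave a limma adjusted p of 0.0168. Matn1 passed in 5 of 16 alternatives, the others being no batch term (0.00749), median centring (0.0405), quantile normalization (0.0177) and the 5200 most variable features (4.61e-05). The highest adjusted p was 0.278. The choice of the 5200 most variable features uses the stage difference itself, so its value adds no support. The fit with no batch term understates the error if batch was already taken out of the table.

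In the HL, Matn1 was -0.01, -0.14, -0.43 and -0.46 at CS17, against -0.25, -0.24, -0.18 and -0.45 at CS16. These groups overlapped, with a difference of 0.02 (SE 0.20, 95% interval -0.40 to 0.45). The FL change minus the HL change was 1.20 (SE 0.28), with an unadjusted p of 7.25e-04 and an adjusted p of 0.362, so the limbs were not shown to differ at this threshold. The FL intervals of Hapln1 and Matn1 overlapped, whereas their HL intervals, 0.70 to 1.22 for Hapln1 and -0.40 to 0.45 for Matn1, did not. Other cartilage genes were not analysed here, since no further feature has a name of that kind.

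The Meis2 feature belongs to probe M400017713, which lies in the 5′ untranslated region of Meis2 by the study's sequence analysis. Meis2 is a homeodomain transcription factor known from the proximal limb. The quantitative PCR primers that the study placed on the region of this probe are shown because they tell which end of the transcript was measured, in lower case throughout and without marked bases.
5′-Meis2 forward primer: ctatggccaccacgacttc
5′-Meis2 reverse primer: tgtcagtaggtgttggcagg

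At this probe the log2 ratio was 3.28, 3.07, 3.55 and 3.34 in the CS17 FL, against 1.73, 1.91, 2.07 and 2.70 in the CS16 FL. The groups did not overlap, and CS16 replicate 4 stood closest to the CS17 values. The difference was 1.21 (SE 0.21, 95% interval 0.76 to 1.65), or 2.31-fold, with batch differences from 0.63 to 1.56. The limma adjusted p for Meis2 was 0.00673 without CS16 FL replicate 4, the only 1 of 8 FL arrays whose removal made it pass. Without the batch term it was 0.0124. Over the 16 alternatives it lay between 5.23e-05, among the 5200 most variable features, and 0.323, with 5 of them past the threshold. The values with no batch term and among the most variable features carry the limits given for Matn1. By this 5′ probe the bat FL stood at 9.91 times the pool at CS17 and at 4.29 times the pool at CS16. The study also had a 3′ Meis2 array probe, not named among the features here. For that probe it reported smaller folds, both over the mouse and between the limbs. Its quantitative PCR of both regions was highest in the FL at CS17. That PCR used amplified RNA, and the study lists its CS16 and CS17 embryos among the array embryos, so they are not separate animals.

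In the HL the Meis2 probe averaged 1.13 ± 0.34 at CS17 and 1.16 ± 0.23 at CS16 (SD, n = 4 each). The HL difference was -0.03 (SE 0.21, 95% interval -0.47 to 0.42), and the FL change was larger by 1.24 (SE 0.29, unadjusted p = 8.04e-04, adjusted p = 0.364). Hoxd11, a posterior Hox gene of the distal limb, was named from probe M200002041 by the same supplementary list. Another supplementary table of the study gives that probe number for the 3′ end of Meis2. The study's main text gives the 3′ Meis2 array probe a different number, so the name Hoxd11 was kept. It was 0.37, 1.02, 0.78 and 1.02 in the CS17 FL, against 0.59, 0.22, 0.96 and 0.44 in the CS16 FL. The stages overlapped, and the difference was 0.24 (SE 0.21, 95% interval -0.20 to 0.69, adjusted p = 0.873). Zfp800, a zinc finger gene, gave 0.29 (SE 0.34, adjusted p = 0.912), with an interval from -0.43 to 1.02.

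**Figure D2:**
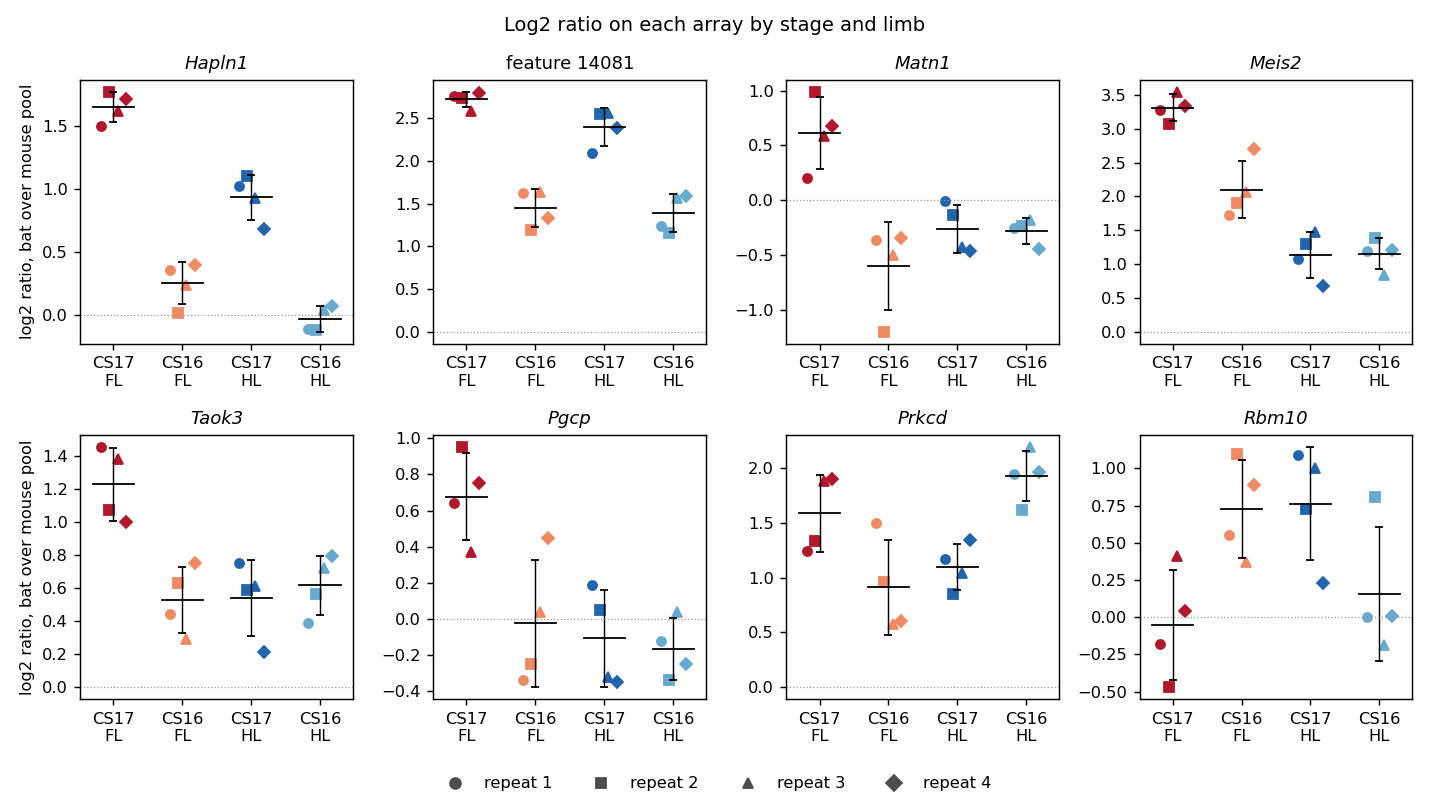
Each panel gives the log2 ratio of bat over mouse pool on the vertical axis, for CS17 FL, CS16 FL, CS17 HL and CS16 HL along the horizontal axis. Symbols are the 4 repeats, bars the means and whiskers the SD (n = 4), and the dotted line is the level of the pool. Hapln1 and feature 14081 are higher at CS17 in both limbs. Matn1, Meis2, Taok3 and Pgcp have FL means at least 0.70 higher at CS17 and HL means that differ by at most 0.07 in size. The study had listed these genes for a higher CS17 FL than CS17 HL, which favours such a pattern. None of them was called for a difference between the limbs in stage change. The HL means of Prkcd and Rbm10 differ by -0.83 and 0.60.

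A second group of named genes had smaller differences of 0.60 to 0.70 in the FL, none of which passed the adjusted threshold. Taok3, a protein kinase of the TAO family that acts in stress signalling, was 1.45, 1.07, 1.38 and 1.00 in the CS17 FL, against 0.44, 0.63, 0.29 and 0.75 in the CS16 FL. The groups did not overlap, and the difference was 0.70 (SE 0.15, adjusted p = 0.178). Its HL difference was -0.07 (SE 0.15), and the interaction had an adjusted p of 0.412. Pgcp, a secreted carboxypeptidase, was 0.64, 0.95, 0.37 and 0.75 in the CS17 FL, against -0.34, -0.25, 0.04 and 0.45 in the CS16 FL. CS16 replicate 4 overlapped the CS17 values, and the difference was 0.70 (SE 0.18, adjusted p = 0.333).

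Prkcd codes for protein kinase C delta, and the study assigned its probe by sequence search. It was 1.24, 1.33, 1.88 and 1.90 in the CS17 FL, against 1.5, 0.96, 0.58 and 0.60 in the CS16 FL. Repeat 1 went the other way, so 3 of 4 batches were higher at CS17, and the difference was 0.68 (SE 0.20, adjusted p = 0.431). In the HL, Prkcd was 1.17, 0.85, 1.04 and 1.34 at CS17, against 1.95, 1.62, 2.19 and 1.96 at CS16. These HL groups did not overlap, with a difference of -0.83 (SE 0.20, adjusted p = 0.0974). The FL change minus the HL change was 1.51 (SE 0.28), with an unadjusted limma p of 9.73e-05 and an adjusted p of 0.336. That adjusted p equals the smallest of the interaction over all features and is shared with Hrk and 1700047M11Rik. The study had listed Prkcd for a CS16 FL below the CS16 HL. Such a choice itself favours a rise in the FL and a fall in the HL, so these changes are a description only. Syt13, a synaptotagmin of membrane traffic, had a pattern similar to that of Prkcd. Its FL difference was 0.60 (SE 0.26, adjusted p = 0.799) and its HL difference -0.64 (SE 0.26, adjusted p = 0.266).

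Lower values at CS17 were fewer among the named genes. Rbm10, a splicing regulator whose probe was also assigned by sequence search, was -0.18, -0.47, 0.41 and 0.04 in the CS17 FL, against 0.55, 1.10, 0.37 and 0.89 in the CS16 FL. Only CS17 replicate 3 reached into the CS16 range. The difference was -0.78 (SE 0.25, 95% interval -1.31 to -0.24, adjusted p = 0.512), while the HL differed by 0.60 (SE 0.25). Gm10059 gave -0.58 in the FL (SE 0.26, adjusted p = 0.802) and 0.93 in the HL (SE 0.26, adjusted p = 0.136).

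Hist1h2ao, a histone H2A gene with near-identical copies that a probe may not tell apart, was -1.56, -1.40, -1.51 and -1.64 in the CS17 FL, against -1.38, -1.19, -0.78 and -0.96 in the CS16 FL. The groups did not overlap by a narrow margin, and the difference was -0.45 (SE 0.18, adjusted p = 0.738). A second listed probe of this gene met several features and was not named.

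Across the 30 matched probes, 1 was called in the FL (Hapln1). The FL groups did not overlap with CS17 higher for 6 probes, where 3.14% of all features did so, and with CS17 lower for 1 probe, where 3.47% did so. The 6 were Hapln1, Matn1, Meis2, Taok3, 1700047M11Rik and feature 31719, and the 1 was Hist1h2ao. A fold above 1.5 was reached by 7 probes upwards and 1 downwards, against 0.332% and 0.198% of all features. The median FL change was 0.22 over these probes and -0.01 over all features, and the median HL change was -0.38 over these probes and -0.02 over all features. Of the probes, 21 had been listed for a difference between the CS17 limbs. The CS17 values of both limbs thus enter the choice and the stage changes, and nothing further is read from these shares.

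Of those 21 probes, 19 had a higher mean in the CS17 FL than in the CS17 HL. A choice by CS17 FL above CS17 HL itself favours a rise in the FL and a fall in the HL. The counts over these 19 are therefore given as a description only. Among the 19, the FL change was above 0 for 17 and the HL change was below 0 for 16, against 48.1% and 55.2% of all features. For 14 of them the FL change was above 0 and the HL change below 0, as for 23.6% of all features. The HL change was larger in size than the FL change for 12 of the 19, and the FL changes had a median of 0.41 and the HL changes a median of -0.53. The smallest FL changes in this set belonged to genes with sizeable HL changes, which the choice by CS17 limb difference favours as well. The probe of 1700125D06Rik differed by 0.01 in the FL (SE 0.20, 95% interval -0.42 to 0.44) and fell by 1.26 in the HL (SE 0.20, adjusted p = 0.0248). That HL call held with 11 of the 16 arrays left out in turn and was lost without CS17 HL replicate 1 or 4 or CS16 HL replicate 1, 2 or 3 (highest adjusted p = 0.086). For Casc1 the FL difference was 0.21 (SE 0.21, 95% interval -0.24 to 0.65) and the HL difference -0.95 (SE 0.21, adjusted p = 0.0818). Tmc1, a channel gene known from hair cells of the ear, gave -0.13 in the FL (SE 0.26) and -0.99 in the HL (SE 0.26, adjusted p = 0.114).

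**Figure D3:**
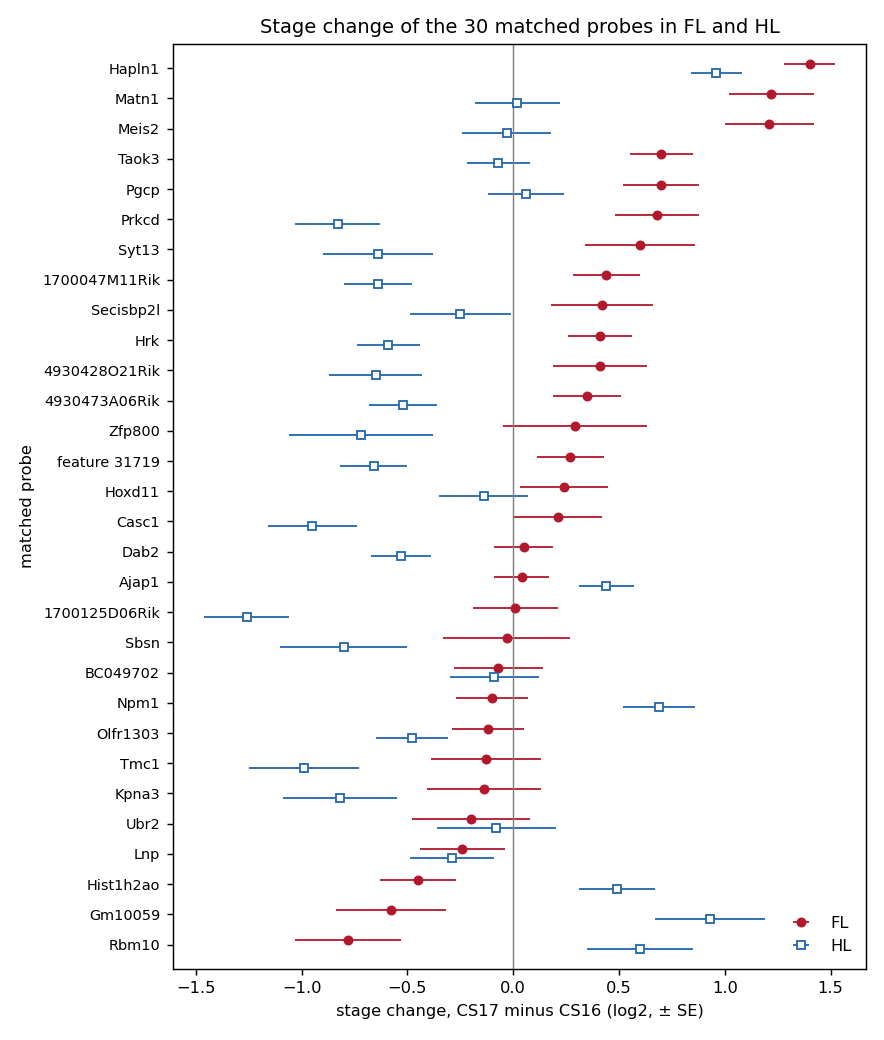
The stage change, CS17 minus CS16 on the log2 scale, is shown along the horizontal axis for the 30 matched probes, ordered by their FL change, with filled circles for FL and open squares for HL and bars of 1 SE. Hapln1 at the top is positive in both limbs, 15 probes are positive in the FL and negative in the HL, and Rbm10 at the bottom is negative in the FL and positive in the HL.

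Hrk, a BH3-only activator of apoptosis, averaged 0.64 ± 0.23 in the CS17 FL and 0.23 ± 0.23 in the CS16 FL (SD, n = 4 each), a difference of 0.41 (SE 0.15, adjusted p = 0.625). The HL difference of Hrk was -0.59 (SE 0.15, adjusted p = 0.103), with no overlap between its HL groups. Dab2, an endocytic adaptor, differed by 0.05 in the FL (SE 0.14, 95% interval -0.25 to 0.35).

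Kpna3, an importin that carries cargo into the nucleus, gave -0.14 (SE 0.27, 95% interval -0.71 to 0.44). Npm1, the nucleolar protein nucleophosmin, gave -0.10 in the FL (SE 0.17, adjusted p = 0.952) and 0.69 in the HL (SE 0.17, adjusted p = 0.106). Ajap1, a protein of adherens junctions, gave 0.04 in the FL (SE 0.13) and 0.44 in the HL (SE 0.13, adjusted p = 0.149). For these 3 genes the FL stages overlapped. The study had listed Npm1 and Ajap1 for a CS16 FL above the CS16 HL, a choice that itself favours a rise in the HL.

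Lnp, which codes for the endoplasmic reticulum protein Lunapark, averaged 1.74 ± 0.08 in the CS17 FL and 1.98 ± 0.19 in the CS16 FL (SD, n = 4 each), lower in all 4 batches but with overlapping groups and an adjusted p of 0.873. Ubr2, a ubiquitin ligase, differed by -0.20 (SE 0.28, adjusted p = 0.93). The remaining matched probes, BC049702, Sbsn, Olfr1303, Secisbp2l, 4930428O21Rik, 4930473A06Rik, 1700047M11Rik and feature 31719, had FL differences from -0.12 to 0.44 with adjusted p values from 0.624 to 0.99.

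Among features whose stages did not overlap, the next largest positive difference after these named ones was that of feature 35283. It was 0.78, 1.51, 1.10 and 1.29 in the CS17 FL, against 0.41, -0.14, 0.51 and 0.01 in the CS16 FL, a difference of 0.97 (SE 0.19, adjusted p = 0.108). The 5 largest falls without overlap belonged to features 30886, 11746, 23979, 16683 and 23181, none of which is named, with differences from -0.87 to -0.77 and adjusted p values from 0.0792 to 0.575. Feature 11746 had the smallest SE of them, at 0.64, 0.78, 0.61 and 0.70 in the CS17 FL, against 1.61, 1.29, 1.5 and 1.62 in the CS16 FL. Its FL difference was -0.82 (SE 0.15, adjusted p = 0.0792), and its HL difference was -0.85 (SE 0.15, adjusted p = 0.0285), an HL call that held with 9 of the 16 arrays left out in turn and was lost without CS17 FL replicate 1, CS17 HL replicate 1 or 4, or any 1 of the 4 CS16 HL arrays (highest adjusted p = 0.106). At an adjusted p under 0.10, 11 features were called (0.0869%), with 8 higher and 3 lower at CS17. The feature just outside the 0.05 threshold was 19307, with a difference of 0.69 (SE 0.11) and an adjusted p of 0.0601.

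As deposited, the FL had fewer falls past a fold of 1.5 than the HL. After quantile normalization it still had fewer, but the size of the gap changed with the scaling and with single arrays. A fold above 1.5 was reached by 42 features upwards and 25 downwards in the FL, against 46 upwards (0.363%) and 221 downwards (1.75%) in the HL. After quantile normalization these counts were 55 upwards and 24 downwards in the FL, against 67 upwards and 84 downwards in the HL. Without CS17 HL replicate 4 the HL had 51 upwards and 131 downwards, and in the FL the falls outnumbered the rises without CS17 FL replicate 4 (38 upwards, 42 downwards) or CS16 FL replicate 3 (64 upwards, 92 downwards). The median SD over 4 arrays was 0.176 in the CS17 HL and 0.135 in the CS16 HL, and the median of CS17 HL replicate 4 was -0.174, where the other CS17 HL arrays lay between -0.104 and -0.052. The part of these arrays in the difference between limbs was not tested beyond leaving them out. In the HL, 36 features were called (0.284%), with 11 higher (0.0869%) and 25 lower (0.198%). That split turned to 27 higher and 15 lower after quantile normalization, and no lower call was left without CS17 HL replicate 1 (3 higher), CS17 HL replicate 4 (7 higher), CS16 HL replicate 1 (1 higher) or CS16 HL replicate 3 (2 higher). No feature was called for a difference between the limbs in stage change with limma (0%), the smallest adjusted p being 0.336, while 994 features (7.85%) had an unadjusted p under 0.05, 662 (5.23%) with the FL change above the HL change and 332 (2.62%) below it.

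**Figure D4:**
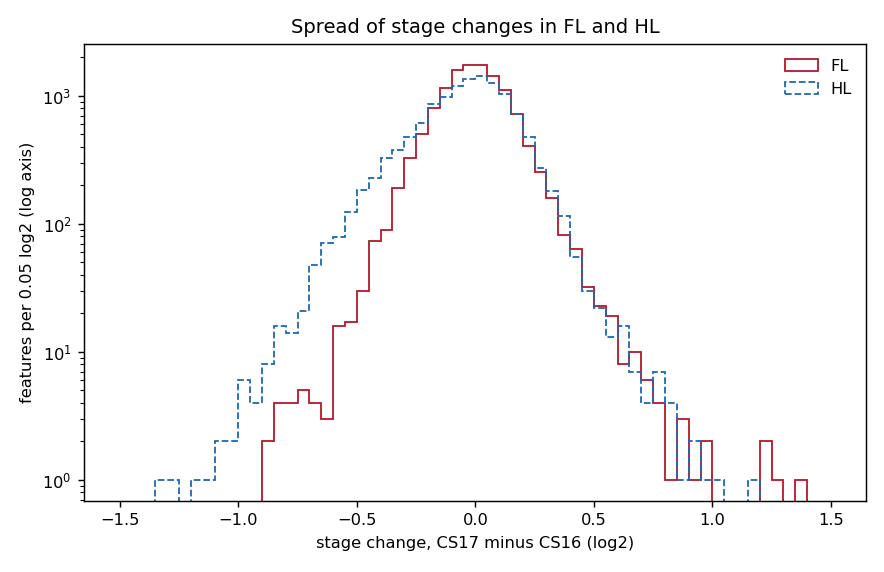
The horizontal axis gives the stage change, CS17 minus CS16 on the log2 scale, in steps of 0.05, and the vertical log axis the number of features per step, for FL (solid) and HL (dashed). On the deposited scale both curves run close together on the right, and the HL curve extends further to the left, to -1.34, than the FL curve, to -0.87, while quantile normalization takes the HL count of falls past a fold of 1.5 to 84.

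The 8 FL arrays were alike in overall signal. Array medians lay between -0.096 and -0.044 in the CS17 FL and between -0.098 and -0.040 in the CS16 FL, and pairs of FL arrays correlated between 0.910 and 0.963 across features. The median SD over 4 arrays was 0.129 at CS17 and 0.141 at CS16. CS17 HL replicate 4 correlated least with the other arrays of its group (mean 0.908), an array that enters the shared estimate of spread. Without it, 14 features were called in the FL, 10 higher and 4 lower, Hapln1 and feature 14081 among them. Without the batch term the FL count was 34, with 24 higher and 10 lower, and again held both features. That fit understates the error if batch was already taken out of the table. For a single feature, an exact two-sided permutation test of 4 against 4 arrays cannot go below 0.0286, and exact sign flips within the 4 batches cannot go below 0.125. Every feature whose stages do not overlap reaches both limits, which holds for 3.14% of all features upwards and 3.47% downwards. Hapln1, feature 14081, Matn1, Meis2 and Taok3 are among them, so these tests do not set them apart.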

How the data were processed

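The deposited table holds log2 ratios, 1 column per array, made by the authors from GenePix scans with background correction and normalisation in R. Filtering of weak spots, filling of gaps, a correction for batch and a filter on variance are further steps in the study's methods. Which of them the table includes, and its centring, are not known, and the array number limits the precision. Of 37440 rows, 13988 (37.4%) had values, and identical rows were counted once, leaving 12656 features. Batch means varied with a median SD of 0.028, as in a table from which batch differences were taken out.

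Group means and labelling batch were fitted over all 16 arrays with limma 3.58.1 in R 4.3.3 (9 residual and 5.64 prior degrees of freedom), with Benjamini-Hochberg adjustment over all features. The labels tie repeat number to batch. Deviations of same-numbered FL arrays correlated between -0.549 and -0.132, which a batch correction can itself set. The mouse pool was 1 sample, and its own spread is left out.

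Features were named where all 3 folds of a listed probe lay within 0.05 of exactly 1 feature. The text names these, every called feature, and the 5 largest changes in each direction without overlap between stages. Members, lists and rules were chosen with earlier results of these data known. Pathway lists and cell type markers were not analysed here, since features carry numbers only. The limma fit was tested on simulated data with independent normal noise and no batch or embryo effects, so that test does not cover such effects. Plots used Python 3.11.15 and matplotlib 3.10.9. Alternatives were no batch term, only FL arrays, embryo as a random block, median centring, quantile normalization, the 5200 most variable features, every row counted, robust variance moderation, other thresholds and each array left out. Leaving out HL arrays, and all alternatives for the HL, were added after the data were seen.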

Additional observations from a re-analysis of the deposited data

Results flagged for a closer look

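Among 74 groups of 4 FL arrays examined over the named features, 1 held an array far from the other 3, where chance alone gives about 1 in 20. It was the Ubr2 probe in the CS17 FL, where the lowest array stood at -1.65 and the nearest other at -1.56, a gap of 0.855 of the range. The 4 values all lay within a narrow band.

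For 3 matched probes every labelling batch moved up in the FL and down in the HL. How many of all features did so was not counted, so the number is a description only. The FL change minus the HL change was 0.87 for 4930473A06Rik (FL 0.35, HL -0.52), 0.93 for feature 31719 (FL 0.27, HL -0.66) and 1.08 for 1700047M11Rik (FL 0.44, HL -0.64). The interaction test gave adjusted p values of 0.377, 0.377 and 0.336, and all 3 probes had been listed by the study for a difference between the CS17 limbs.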

How the results depend on the processing

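The 2 features called in the FL remained called under every alternative run, and the count of calls was what moved. It was 34 with no replicate block, 9 with arrays centred on their median (7 higher, 2 lower), 15 after quantile normalization (11 higher, 4 lower), 17 among the 5200 most variable features (13 higher, 4 lower) and 11 at an adjusted p under 0.10. Leaving out 1 FL array gave 2 to 4 calls, with 4 without CS16 FL replicate 3. Leaving out 1 HL array gave 2 to 14, with 7 without CS17 HL replicate 1, 5 without replicate 3 and 14 without replicate 4. The fit with no replicate block has 12 residual degrees of freedom, which is too many if batch was already taken out of the table. The choice of the most variable features uses the stage difference itself and lifts the prior degrees of freedom to 75.6, and the other causes were not tested.

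The count with a fold above 1.5 was 67, and 70 to 156 with 1 FL array left out (105 without CS17 FL replicate 1, 102 without CS17 FL replicate 3, 156 without CS16 FL replicate 3, where 92 were lower). The median size was 0.092 to 0.122 with 1 FL array left out and 0.086 with every row counted. The interaction count was 0 except among the 5200 most variable features (15). The HL count of 36 was 358 with no replicate block, 143 among the most variable features, and 1 to 69 with 1 array left out, and its 11 higher and 25 lower became 27 higher and 15 lower after quantile normalization (42 calls). No lower HL call was left without CS17 HL replicate 1 or 4 or CS16 HL replicate 1 or 3. The HL count with a fold above 1.5 was 151 after quantile normalization (67 higher, 84 lower) and 182 to 410 with 1 array left out.

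Of 592 single-feature values under alternatives, 554 kept direction and side of the threshold, 21 newly passed it and none lost it. The 17 that reversed all came from leaving out 1 array. With 1 FL array left out the values lay between -0.22 and 0.16 for 1700125D06Rik, -0.07 and 0.12 for Ajap1, -0.18 and 0.16 for Sbsn, -0.36 and 0.07 for Tmc1, -0.08 and 0.20 for Dab2, -0.17 and 0.08 for BC049702, -0.25 and 0.10 for Npm1, and -0.26 and 0.01 for Olfr1303. Signal over background was not analysed here, so it sets no limit on dim probes.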
